A study of Homo sapiens with 135 samples.

Results

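The 11250 regions described here are the CTCF regions called on day 9 of neural induction in H9 cells given DMSO or BPK25, sorted by whether the other treatment had a CTCF region at the same place. The DMSO list held 8469 regions and the BPK25 list 3795. A DMSO region that overlapped a BPK25 region by at least 1 bp was kept (1025 regions), a DMSO region with no overlap was DMSO-only (7444 regions), and a BPK25 region with no overlap was BPK25-only (2781 regions). Seen from the BPK25 list, the kept regions numbered 1014, since a few intervals of one list covered more than 1 of the other. All 36 lists of the series, merged, made 350373 places.

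H9 is an established human embryonic stem cell line, grown without feeders on Matrigel and moved into STEMdiff Neural Induction Medium with SMADi. Cells carried no treatment (WT), the solvent DMSO, or BPK25 at 20 µM, which was renewed with the daily medium. Chromatin immunoprecipitation sequencing (ChIP-seq), which maps where a protein sits on DNA, was done on days 0, 4 and 9 for CTCF, MBD3, TET1, TET2 and TET3, with WT lists for CTCF and MBD3 only; the protocol gives no antibody for TET2 or TET3. Each list was called on 3 pooled replicates, so each condition gave 1 value with no replicate error, and no test over samples could be made. Replicates are not said to be separate cultures. The labels call the cells embryonic stem cells on day 9 too, and peak lists hold no expression values with which to check their state. Intervals given for shares are Wilson 95% intervals and cover counting error only.

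CTCF is a zinc finger protein that binds a long DNA motif, stops the cohesin ring as it extrudes loops, and so sets boundaries between chromatin domains. Its binding is hindered where the motif is methylated. MBD3 is a subunit of NuRD, a complex that couples nucleosome remodelling to histone deacetylation. TET1, TET2 and TET3 oxidise 5-methylcytosine, the first step of active DNA demethylation. BPK25 is a small molecule reported to lower NuRD subunits in other cells; their level was not measured in these files.

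Most CTCF regions of day 9 DMSO cells had no counterpart under BPK25. Of 8469 DMSO regions, 12.1% (11.4 to 12.8) overlapped a BPK25 region, and of 3795 BPK25 regions 26.7% (25.3 to 28.2) overlapped a DMSO region. Both shares were far above those of the same regions moved by 10 kb, which were 0.307% and 0.870%. The pair of lists made without the compound, WT and DMSO, also shared few regions. The WT list held 8521 regions and was longer than the BPK25 list, so the shares were not taken at like list length. The share of WT regions found in DMSO was below that of BPK25 regions. Only 14.6% (13.8 to 15.3) of DMSO regions overlapped a WT region, and 14.5% (13.8 to 15.2) of WT regions overlapped a DMSO region. BPK25 regions overlapped WT regions at 12.9% (11.8 to 14.0), and WT regions overlapped BPK25 regions at 5.77% (5.30 to 6.29). Overlap was low in all 3 pairs of day 9 CTCF lists. The shares depended on the threshold. Among regions with a −log10 q of at least 5, of which DMSO had 1243 and BPK25 2103, the order turned, with 37.3% of DMSO and 21.8% of BPK25 regions shared. Among regions of at least 4-fold enrichment, 3.17% of 4948 DMSO and 20.1% of 783 BPK25 regions were shared.

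By −log10 q, kept regions were stronger than DMSO-only regions. The authors' −log10 q at the summit, a measure of confidence in a peak, had a median of 5.09 over kept regions and 2.43 over DMSO-only regions. Median fold enrichment, the height of a peak over its local background, was close, at 4.26 and 4.17. It turned among regions with a −log10 q of at least 5, where it was 5.03 for kept and 5.92 for DMSO-only regions. The share of DMSO regions that were kept was 4.84% (3.59 to 6.50) in the 10% of the list with the lowest −log10 q. In the 10% with the highest, from a −log10 q of 6.09 upward, it was 52.3% (48.9 to 55.6), and in the 10% just below those it was 16.3% (14.0 to 18.9). The BPK25 list had the same shape, with 15.8% (12.5 to 19.8) of its lowest 10% and 67.9% (63.0 to 72.4) of its top 10% also found in DMSO. Ranked by fold enrichment, the DMSO list was instead kept most at both ends, with 25.5% (22.7 to 28.5) of the lowest and of the highest 10% and between 6.97% and 13.1% in the groups between. In the BPK25 list the kept share stayed between 23.7% and 30.3% in all 10 groups of fold enrichment.

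**Figure D1:**
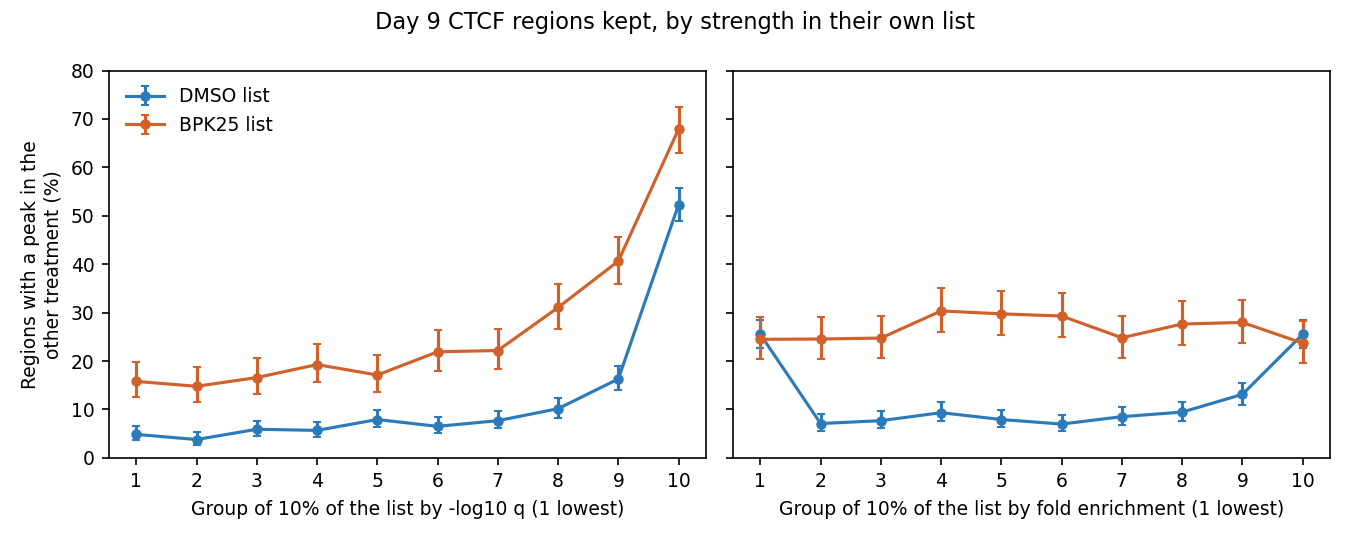
Percentage of regions with a day 9 CTCF region in the other treatment (vertical axis) in 10 equal groups of the region's own list, ranked by −log10 q (left) and by fold enrichment (right), with Wilson 95% intervals. By −log10 q the kept share climbed to 52.3% in the DMSO list and 67.9% in the BPK25 list, while by fold enrichment the DMSO list was highest at both ends.

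The classes also stood on different backgrounds. The number of overlapping fragments at each summit (the pileup) and the number expected from the local background were solved from the authors' fold enrichment and p-value. DMSO-only summits had a median pileup of 10 fragments over a background of 1.46, and kept summits had 19 fragments over 3.28. BPK25-only summits had 31 fragments over 9.04, and the kept regions as called in the BPK25 list had 80 fragments over 24.4. The lowest background of each list, which follows its depth and fragment length, was similar, at 1.14 in DMSO and 1.45 in BPK25. A background of at least 2 times that lowest value was found at 16.2% (15.4 to 17.1) of DMSO-only regions and 63.1% (60.1 to 66.1) of kept regions. In the BPK25 list it was found at 79.9% (78.3 to 81.3) of BPK25-only regions and 94.0% (92.3 to 95.3) of kept regions. Over whole lists the median background was 1.39 times the lowest in DMSO, 1.41 in WT and 7.88 in BPK25 on day 9. The day 4 CTCF lists lay at 2.09 in WT, 2.08 in DMSO and 2.55 in BPK25, and the day 0 lists at 9.40 in WT, 23.4 in DMSO and 3.16 in BPK25. A high median background was therefore also found in lists made without the compound. The sources used here do not name the control sample of a list, and the part of this background in the results was not tested.

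**Figure D2:**
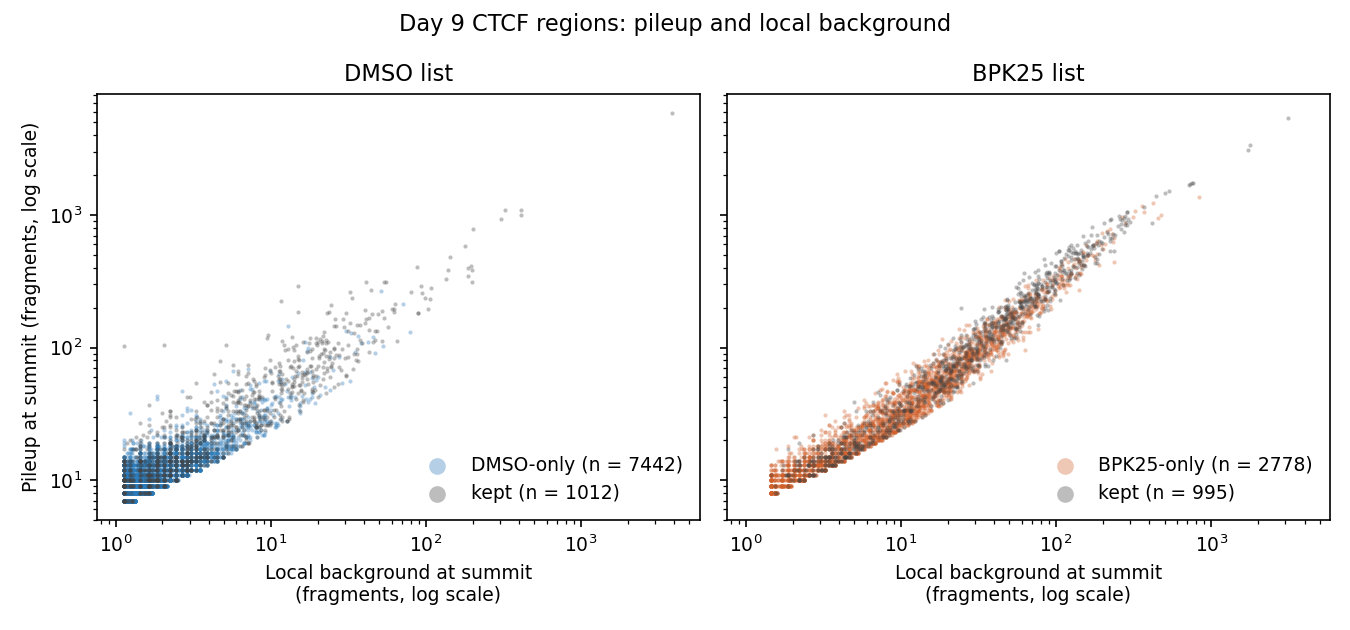
Pileup at the summit against local background, both in fragments on log axes, for regions of the DMSO list (left) and the BPK25 list (right), with 1 point per region. Most DMSO-only points lie at the low left, where the median was 10 fragments over 1.46, and BPK25 regions spread along a line of nearly constant ratio to high backgrounds.

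Kept regions split by background as well. In the DMSO list 34.6% (32.5 to 36.8) of the 1847 regions with a background of at least 2 times the lowest were kept, against 5.65% (5.11 to 6.23) of the 6607 regions below it. In the BPK25 list the shares were 29.6% (28.1 to 31.3) of 3154 and 9.69% (7.60 to 12.3) of 619 regions.

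At most kept places the summits of the 2 lists lay close together. Their distance had a median of 22 bp and a 75th percentile of 104 bp. Of the summits 65.0% (62.0 to 67.8) were within 50 bp and 87.9% (85.8 to 89.8) within 200 bp of each other. Kept regions overlap by definition and the nearest overlapping region was taken, so the rule itself limits this distance. For 1000 kept regions pileup and background could be solved in both lists. There the median fold enrichment was 4.30 in DMSO and 3.31 in BPK25, and the DMSO value was the larger at 793 regions. The −log10 q went the other way, with medians of 4.96 in DMSO and 14.9 in BPK25, and the DMSO value was the larger at 205 regions. The median ratio of BPK25 to DMSO was 4.2 for the pileup and 5.78 for the background. These are values of separate lists whose depth is not stated, so they are set side by side and not read as a change in binding. Kept regions had a median width of 246 bp in the DMSO list, DMSO-only regions 209 bp and BPK25-only regions 224 bp. Among regions with a −log10 q of at least 5 the widths were 228.5 bp for kept, 231 bp for DMSO-only and 232 bp for BPK25-only regions. More than 1 summit was called in 15.0% of kept, 2.11% of DMSO-only and 14.6% of BPK25-only regions.

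The classes differed in whether CTCF had been called at the same place on earlier days. Over all 11250 regions, 41% overlapped a CTCF region of day 4 DMSO cells. Among kept regions the share was 86.1% (83.9 to 88.1), among BPK25-only regions 70.9% (69.2 to 72.6), and among DMSO-only regions 23.7% (22.7 to 24.6). BPK25-only regions thus exceeded DMSO-only regions by 47.3 percentage points (45.3 to 49.2), or by 21.4 points (17.3 to 25.5) among regions of at least 4-fold enrichment. Moved by 10 kb, the classes overlapped any other list of the series at 5.35% of regions or fewer. The day 4 BPK25 list, with 37.8% over all regions, gave 83.2%, 72.7% and 18.6% in the same order, and the day 4 WT list gave 79.1%, 60.4% and 19.9%. All 3 day 4 lists held a CTCF region at 71.5% (68.7 to 74.2) of kept, 52.2% (50.4 to 54.1) of BPK25-only and 5.75% (5.24 to 6.30) of DMSO-only regions. Regions found on day 9 under BPK25 and not under DMSO were therefore, in their majority, places where CTCF had been called on day 4 without the compound. The CTCF list of day 0 DMSO cells overlapped 44.1% (41.1 to 47.2) of kept, 15.4% (14.1 to 16.8) of BPK25-only and 1.21% (0.985 to 1.48) of DMSO-only regions. The other day 0 CTCF lists did not separate the last pair in this way. WT gave 9.85% (8.18 to 11.8), 1.47% (1.09 to 1.99) and 1.13% (0.912 to 1.39), and BPK25 gave 8.59% (7.02 to 10.5), 1.44% (1.06 to 1.95) and 2.96% (2.59 to 3.37). In the WT list of day 9, with 13.1% over all regions, the order of the last pair was the reverse, with 24.6% (22 to 27.3) of kept, 13.2% (12.4 to 14.0) of DMSO-only and 8.81% (7.81 to 9.92) of BPK25-only regions.

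**Figure D3:**
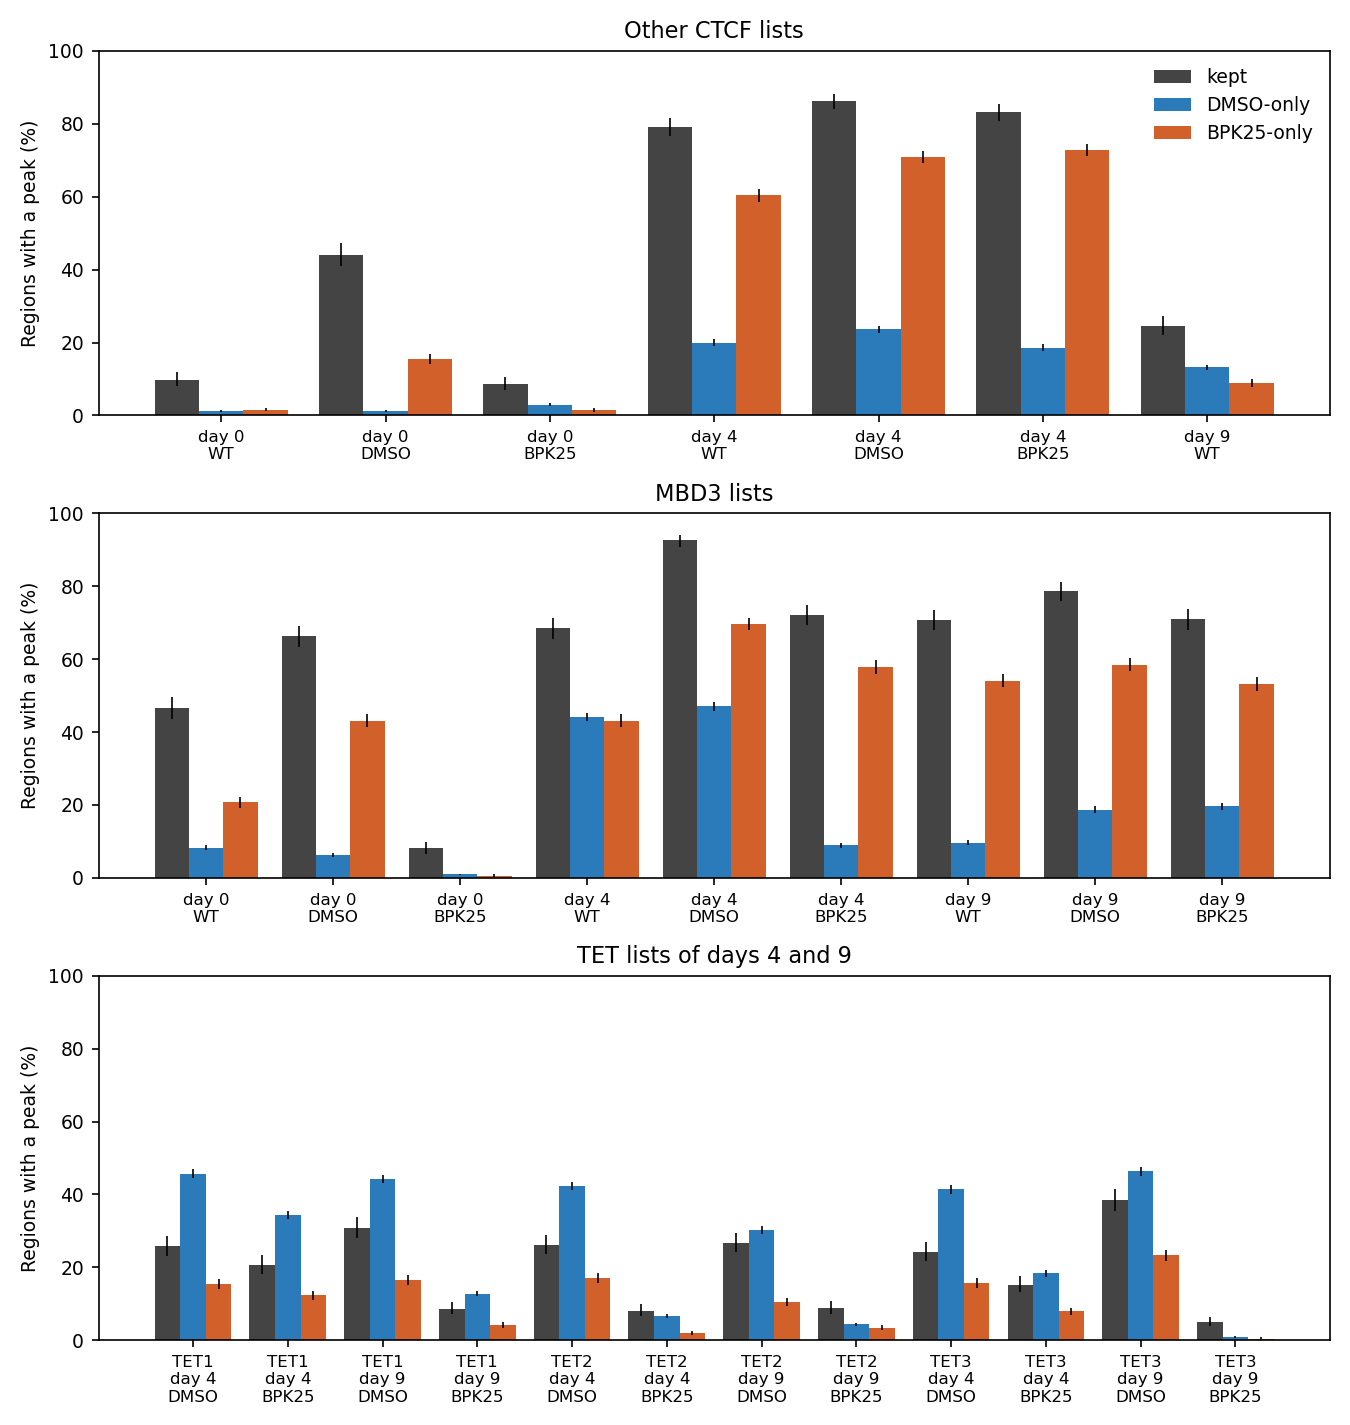
Percentage of kept, DMSO-only and BPK25-only regions that overlap a region of each other CTCF list (top), each MBD3 list (middle) and each TET list of days 4 and 9 (bottom), with Wilson 95% intervals. Day 4 CTCF and day 9 MBD3 were frequent at kept and BPK25-only regions, and TET regions of DMSO cells were most frequent at DMSO-only regions.

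The overlaps of day 4 and day 9 lists were also counted from the day 4 side, which is not a separate observation. Of the 5264 day 4 DMSO regions that had CTCF in all 3 day 4 lists, 41.0% (39.7 to 42.3) were found on day 9 under BPK25, 22.2% (21.1 to 23.4) under DMSO and 12.3% (11.4 to 13.2) in WT. Among the 25% of these sites with the highest day 4 −log10 q the shares were 71.6% (69.1 to 74.0), 41.9% (39.2 to 44.6) and 14.5% (12.7 to 16.5). Among the 25% with the lowest they were 14.2% (12.4 to 16.2), 17.2% (15.3 to 19.4) and 17.3% (15.4 to 19.5), with overlapping intervals. The strong day 4 sites were recovered most often by the BPK25 list, which was the shortest of the 3 day 9 lists.

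Background moved with this result. BPK25-only regions with a background below 2 times the lowest overlapped a day 4 DMSO CTCF region at 15.4% (12.6 to 18.6, 559 regions), and those above it at 84.9% (83.4 to 86.3, 2219 regions). In the DMSO list the kept regions exceeded DMSO-only regions on both sides of that line. Below it the shares were 71.8% (67.1 to 76.2) and 20.6% (19.6 to 21.7), and above it 94.5% (92.5 to 96.0) and 39.3% (36.6 to 42.1). The order of BPK25-only and DMSO-only regions turned with the background. Below the line day 4 CTCF was less frequent at BPK25-only regions, with 15.4% against 20.6%. Above it the reverse held, with 84.9% against 39.3%. Backgrounds above the line were not alike between classes. The 90th percentile of background was 2.51 times the lowest over DMSO-only regions, 19.9 over kept and 32.5 over BPK25-only regions. The shares above the line are therefore not a comparison at like background.

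On day 9, MBD3 followed the day 4 CTCF sites. A day 9 MBD3 region of DMSO cells was present at 34% of all regions. It was present at 78.6% (76.0 to 81.0) of kept, 58.5% (56.6 to 60.3) of BPK25-only and 18.7% (17.9 to 19.6) of DMSO-only regions. Kept exceeded DMSO-only regions by 59.9 percentage points (57.1 to 62.5). The order of BPK25-only and DMSO-only regions turned with the background. Below 2 times the lowest background of their own list, MBD3 was present at 4.47% (3.05 to 6.52) of BPK25-only and 15.0% (14.1 to 15.9) of DMSO-only regions. Above it the shares were 72.0% (70.1 to 73.8) and 37.7% (35.1 to 40.5), again at unlike backgrounds. Kept regions of the DMSO list had it at 56.6% (51.5 to 61.5) below and 91.1% (88.6 to 93.1) above. At 1626 places, MBD3 was thus called in DMSO cells where CTCF was called under BPK25 and not under DMSO. Those MBD3 peaks were strong, with a median pileup of 29 fragments and a fold enrichment of 8.42, against 12 fragments and 5.13 at DMSO-only regions. WT cells gave a like picture on day 9, with MBD3 at 70.8% (68.0 to 73.5) of kept, 54.1% (52.3 to 56.0) of BPK25-only and 9.67% (9.02 to 10.4) of DMSO-only regions. Not all earlier MBD3 lists separated the last pair. The day 4 WT list gave 68.5%, 43.1% and 44.2% in the same order, and the day 0 BPK25 list 8.10%, 0.611% and 0.940%. In the day 0 WT and DMSO lists and the day 4 DMSO and BPK25 lists MBD3 was more frequent at BPK25-only than at DMSO-only regions.

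In BPK25 cells MBD3 was called at 32.6% of all regions, at 70.9% (68.1 to 73.6) of kept and 53.1% (51.3 to 55.0) of BPK25-only regions. The difference of BPK25-only from kept regions was -17.8 percentage points (-21.1 to -14.4), and it ranged from -26.2 to -8.24 over other settings. Of kept regions with MBD3 in DMSO, 77.7% (74.7 to 80.4) also had it in BPK25, and of BPK25-only regions 68.9% (66.7 to 71.1). Of the 1394 DMSO-only regions with MBD3 in DMSO, 30.1% (27.7 to 32.5) had it in BPK25. Most MBD3 at regions that carried CTCF under BPK25 was therefore still called with the compound. Its background in the BPK25 list was high there too, at a median of 22 times the list's lowest at kept, 9.65 at BPK25-only and 2.74 at DMSO-only regions. The same order held in the day 9 MBD3 and day 4 CTCF lists made without the compound. MBD3 of WT cells on day 9 had 12.3, 7.23 and 3.14 times its lowest background there, and CTCF of day 4 DMSO cells 18.2, 10.4 and 1.85 times. It did not hold fully in the day 9 CTCF list of WT cells. In that list kept regions were highest too, but BPK25-only regions lay slightly below DMSO-only regions.

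Presence of day 4 CTCF and of MBD3 went together within each class. Among BPK25-only regions, MBD3 in DMSO cells was found at 69.4% (67.5 to 71.2) of those with CTCF in any day 4 list and at 6.61% (4.72 to 9.18) of those with none. Among DMSO-only regions the shares were 25.9% (24.4 to 27.5) and 14.1% (13.2 to 15.2), and among kept regions 82.9% (80.4 to 85.2) and 22.2% (14.2 to 33.1).

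Over regions of all strengths together, TET regions were distributed the other way. In DMSO cells on day 9, TET1 was called at 36.2% of all regions, TET2 at 25% and TET3 at 39.9%. TET1 was present at 44.3% (43.2 to 45.4) of DMSO-only, 30.9% (28.2 to 33.8) of kept and 16.5% (15.2 to 18.0) of BPK25-only regions. TET2 was present at 30.3% (29.2 to 31.3), 26.7% (24.1 to 29.5) and 10.4% (9.31 to 11.6) of the same classes. TET3 was present at 46.3% (45.2 to 47.4), 38.5% (35.6 to 41.6) and 23.3% (21.8 to 24.9). At least 1 of the TET proteins was called at 63.6% (62.5 to 64.6) of DMSO-only regions. Kept regions had one at 44.8% (41.8 to 47.8) and BPK25-only regions at 30.5% (28.8 to 32.2). Of DMSO-only regions with CTCF in any day 4 list 82.9% (81.5 to 84.2) had one, and of those without 51.2% (49.8 to 52.7). In the other classes the share was lower with day 4 CTCF. It was 41.6% against 87.5% for kept and 27.7% against 43.4% for BPK25-only regions. TET without MBD3 was the commonest state of DMSO-only regions, at 50.5% (49.4 to 51.6), and MBD3 without TET that of kept regions, at 53.0% (49.9 to 56.0), and of BPK25-only regions, at 49.0% (47.2 to 50.9). Neither was called at 30.8% (29.7 to 31.8) of DMSO-only, 20.5% (19 to 22) of BPK25-only and 2.24% (1.50 to 3.34) of kept regions.

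Under BPK25 few of these regions held a TET region. TET1 was called at 10.3% of all regions, TET2 at 4.55% and TET3 at 1.17%. The BPK25 lists differ widely in length, with 43694 TET1, 1928 TET2 and 321 TET3 regions on day 9, so shares are compared between classes and not between lists. Among regions with TET1 in DMSO, TET1 was also called under BPK25 at 22.4% (18.2 to 27.3) of kept, 17.3% (16.0 to 18.6) of DMSO-only and 13.5% (10.7 to 16.9) of BPK25-only regions. For TET3 the shares were 11.1% (8.40 to 14.6), 1.57% (1.20 to 2.04) and 0.617% (0.240 to 1.58). For TET2 the last pair stood the other way, with 28.1% (23.1 to 33.7) of kept, 8.35% (7.28 to 9.56) of DMSO-only and 13.5% (10.0 to 17.9) of BPK25-only regions. TET3 of BPK25 cells was called at 4.98% (3.80 to 6.48) of kept regions, where places with peaks in at least 18 of the 36 lists were also frequent. Such recurrent places made up 15.4% (13.3 to 17.8) of kept, 5.27% (4.78 to 5.80) of DMSO-only and 2.41% (1.9 to 3.05) of BPK25-only regions.

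Since strength itself differed between classes, each list was cut into 4 groups of 25% by −log10 q. The classes were compared within each group. The groups did not make strength equal. The highest ran from a −log10 q of 3.73 to 2141.79 in DMSO and from 18.2 to 3475.45 in BPK25. Among regions with a −log10 q of at least 5 the medians were 14.1 for kept and 6.32 for DMSO-only regions. In the DMSO list the kept regions exceeded DMSO-only regions in day 4 DMSO CTCF by between 47.2 and 61.2 percentage points in the 4 groups, and in MBD3 by between 41.6 and 58.6 points. The TET differences did not hold across strength. In the lowest group kept regions had TET1 more often by 7.51 points (-1.65 to 17.2), an interval that includes 0, and in the highest group less often, with a difference of -31.9 points (-35.9 to -27.5). In the groups between, the TET1 difference was -7.37 points (-15.2 to 1.33) and -3.99 points (-12.0 to 4.30), with intervals that include 0. TET2 was more frequent at kept regions in the lowest group, by 11.8 points (3.37 to 21.4), and in the group below the highest, by 7.93 points (0.105 to 16.2). In the highest group its difference was -19.9 points (-23.9 to -15.7). For TET3 the difference was between 3.19 and 7.81 points in the 3 lower groups, with intervals that include 0, and -28.5 points (-32.8 to -24.0) in the highest. The TET1 difference turned with background too. Below 2 times the lowest background TET1 was present at 49.1% (44.0 to 54.1) of kept and 43.3% (42.1 to 44.5) of DMSO-only regions, and above it at 19.2% (16.4 to 22.5) and 49.8% (46.9 to 52.6). Within these splits, the lower TET1 share of kept regions was thus clear only in the strongest regions and at high background. Neither split made strength or background equal between the classes. Among regions with a −log10 q of at least 5 the difference was -46.8 points (-51.3 to -41.8), against -13.4 (-16.4 to -10.3) over all regions.

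Within the BPK25 list the picture changed. Kept and BPK25-only regions of the same strength group differed less in day 4 DMSO CTCF than kept and DMSO-only regions had. In the highest group it was found at 99.6% of kept and 97.3% of BPK25-only regions, and the largest difference, 10.6 points (1.72 to 19), was in the lowest group. Day 4 WT CTCF differed by 13.8 points (10.2 to 17.7) in the highest group. MBD3 of DMSO cells was found in the highest group at 99.8% and 94.7%, and differed by 11.3 points (2.87 to 20.0) in the lowest. TET1 of DMSO cells separated the 2 classes in all 4 groups. Kept regions exceeded BPK25-only regions by 35.3 points (26.6 to 43.3) in the lowest group, 36.2 (28.1 to 43.8) and 21.6 (15.6 to 28.0) in the next groups and 6.77 (4.19 to 9.66) in the highest. TET2 differed by between 5.92 and 40.5 points and TET3 by between 7.22 and 42.0 points in the same direction. Within the same strength group of BPK25, regions with CTCF in DMSO thus had TET regions of DMSO cells more often than regions without it. In the highest group most kept regions still had none of a given TET, with TET1 at 8.03%, TET2 at 6.55% and TET3 at 11.6%. The separation was not confined to TET. Day 9 CTCF of WT cells was more frequent at kept regions in all 4 groups, by between 13.5 and 17.5 points. Day 9 MBD3 of BPK25 cells differed by between 6.07 (-2.16 to 14.1) and 16.9 points in the same direction. Recurrent places, also more frequent among kept regions, were included in these groups.

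**Figure D4:**
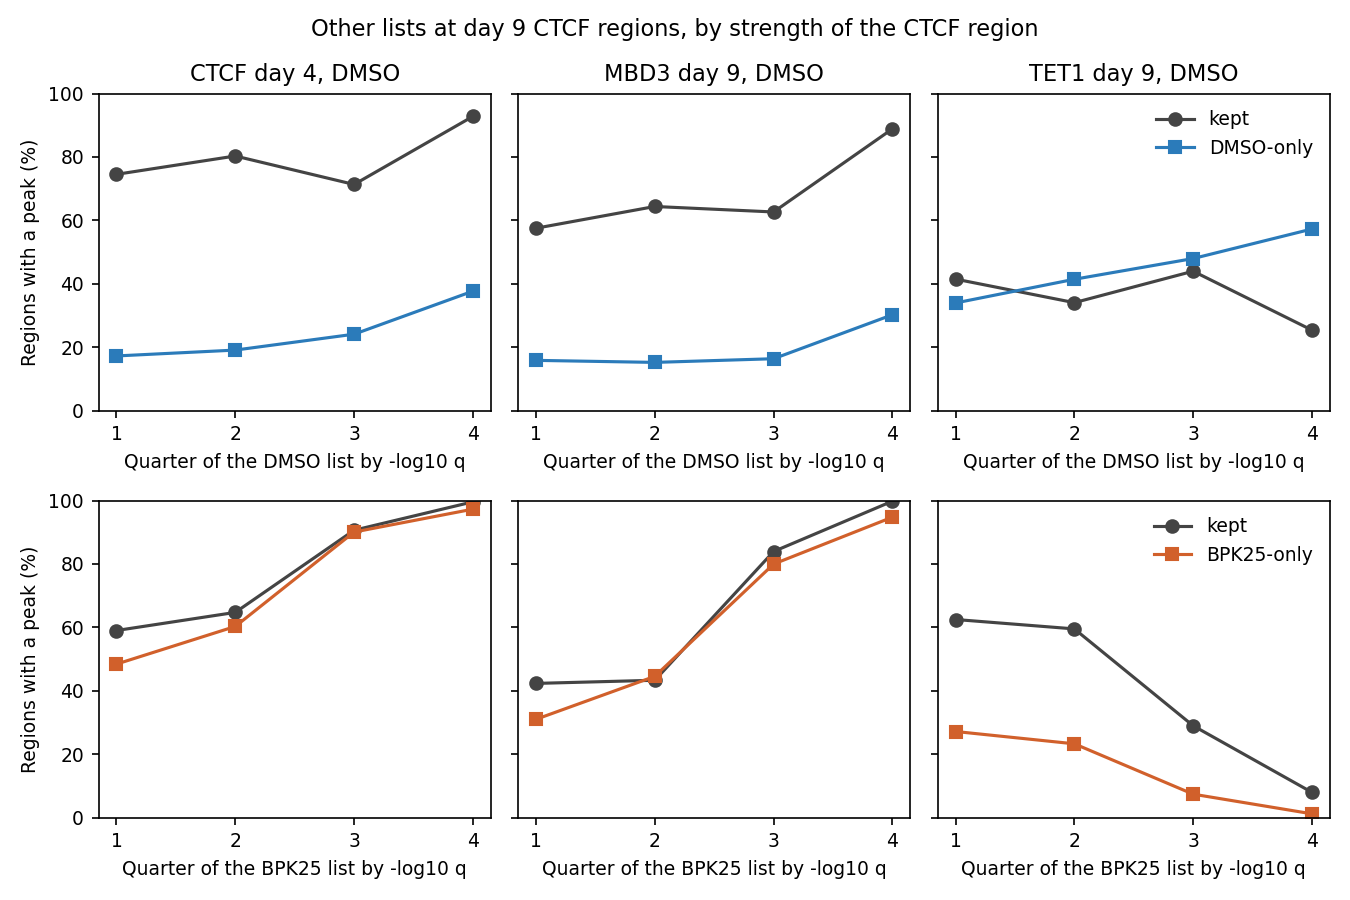
Percentage of regions that overlap a day 4 DMSO CTCF, day 9 DMSO MBD3 or day 9 DMSO TET1 region (columns) in 4 groups of 25% of the DMSO list (top row) and of the BPK25 list (bottom row), ordered by −log10 q from lowest (1) to highest (4). In the DMSO list CTCF and MBD3 separated kept from DMSO-only regions in each group, and in the BPK25 list TET1 separated kept from BPK25-only regions, by 35.3 points in group 1 and 6.77 in group 4.

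By position, the classes differed on chromosomes 1 and X, among others. Contigs other than chromosomes 1 to 22, X, Y and the mitochondrial genome held 0.175% of DMSO-only, 1.56% of kept and 1.44% of BPK25-only regions. Chromosome 10 held 4.31%, 2.54% and 3.13% of these classes. Chromosome 1 held 19.2% of DMSO-only, 19% of kept and 11.9% of BPK25-only regions. Of the whole lists it held 22.8% in WT, 19.1% in DMSO and 13.8% in BPK25 on day 9, and 14.9% in DMSO and 13.5% in BPK25 on day 4. Chromosome X held 67 DMSO and 87 BPK25 regions, and was the only one of chromosomes 1 to 22, X and Y with more regions in the BPK25 list. Its share was 0.791% of the DMSO list, 0.634% of the WT list and 2.29% of the BPK25 list on day 9, against 2.17% and 2.20% of the DMSO and BPK25 lists on day 4. Of X regions in DMSO 26.9% (17.7 to 38.5) were kept. The mitochondrial genome gave 9 DMSO and 6 BPK25 regions, all kept.

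**Figure D5:**
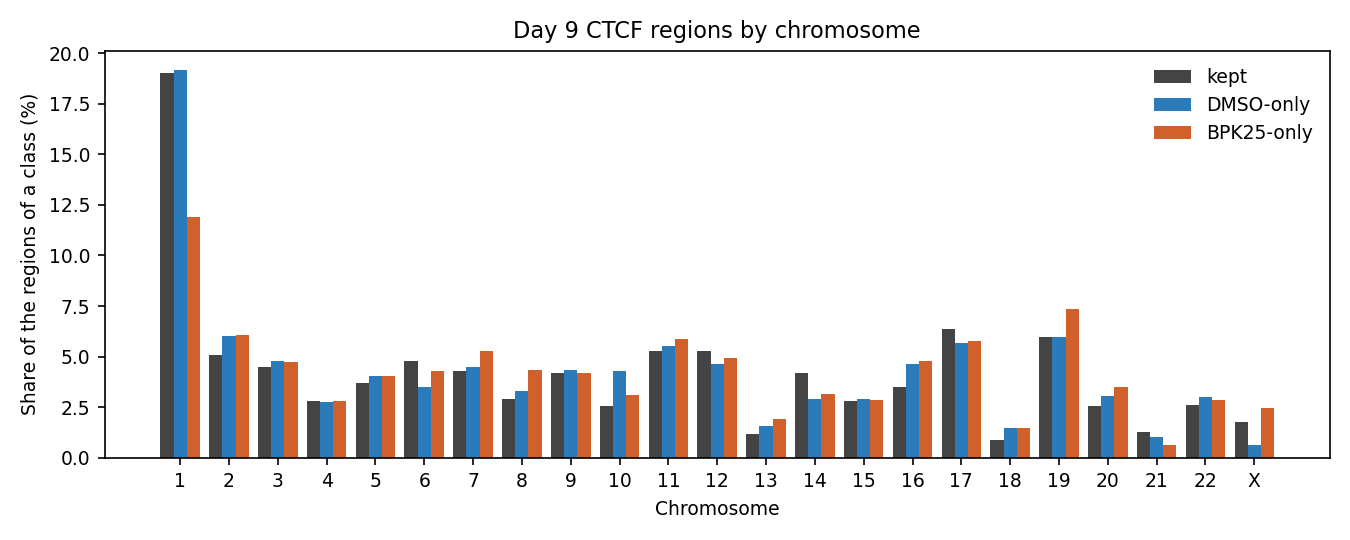
Share of the kept, DMSO-only and BPK25-only regions on chromosomes 1 to 22 and X, in percent of each class. Chromosome 1 held 19.2% of DMSO-only and 11.9% of BPK25-only regions.

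Regions without a counterpart were mostly far from any region of the other list. DMSO-only regions lay a median of 137740.5 bp from the nearest BPK25 region, and 2.61% (2.27 to 2.99) lay within 500 bp of one. BPK25-only regions lay a median of 48456 bp from the nearest DMSO region, and 6.70% (5.83 to 7.69) lay within 500 bp. Few CTCF differences were thus small shifts of a peak. No other list of the series had a region at 799 DMSO-only regions (10.7%, 10.1 to 11.5) and 109 BPK25-only regions (3.92%, 3.26 to 4.71), and this held for 1 kept region.

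Single places show the classes, named as the 4 of highest −log10 q in each class outside recurrent places. Coordinates are those of build hg19, and gene annotation was not used here. The kept region chr15:69113058-69113341 had the highest fold enrichment of the DMSO list, 48.6, with 103 fragments over a background of 1.14. In the BPK25 list the same place had 515 fragments over 99.6, a fold enrichment of 5.13, and in WT 192 fragments over 17.9, a fold enrichment of 10.2. The kept region chr22:32435440-32435708 had 225 fragments over 11.7 in DMSO, 698 over 149 in BPK25 and 320 over 61.6 in WT. Both places had more fragments in BPK25 than in DMSO and a lower fold enrichment. The kept regions chr5:118309532-118309720 and chr15:69745149-69745314 had fold enrichments of 3.85 and 3.04 in DMSO and 3.96 and 3.78 in BPK25, and neither was called in WT on day 9. All 4 had CTCF in the 3 day 4 lists and MBD3 in DMSO cells on day 9.

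Of the DMSO-only regions, chr19:2269508-2269675 had 146 fragments over 12.9 in DMSO and 244 over 74.0 in WT. It had CTCF in all 3 day 4 lists, and the nearest BPK25 region lay 2140 bp away. The region chr12:9848489-9848664 was likewise called in WT, with fold enrichments of 9.95 in DMSO and 4.85 in WT, and on day 4 with all 3 treatments. The region chr6:151547021-151547176, with a fold enrichment of 6.37, was called on day 4 in WT and DMSO and not in BPK25. The region chr4:10012-10196, at the end of the chromosome, had a fold enrichment of 15.5 in DMSO and 7.75 in WT. It overlapped TET1, TET2 and TET3 regions of DMSO cells on days 4 and 9.

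The BPK25-only region of highest −log10 q, chr13:82264343-82264523, reached 627 with a fold enrichment of 3.57. The next were chr19:13054525-13054786 with a fold enrichment of 2.89, chr17:4851566-4851853 with 3.22 and chr12:56498378-56498536 with 3.26. The chromosome 12 region had 1164 fragments over a background of 356. All 4 had CTCF on day 4 in DMSO and in BPK25 cells, and all 4 had MBD3 on day 9 in DMSO and WT cells, where no day 9 CTCF region was called. None overlapped a TET region of any list.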

How the data were processed

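The titles put the 135 samples into 45 groups, each of 1 day, treatment and target. The peak lists were called on replicates 1 to 3 pooled, per the labels. The tools listed per the submitters' processing notes, with no roles, are MACS2 2.1.2, Bowtie2 2.3.4, bedtools 2.25.0, FastQC 0.11.7 and SAMtools 1.9, and the build is hg19. The deposited lists give each summit's fold enrichment as a linear ratio. The deposited lists also give the −log10 of its p-value and q-value. The lists state no depth. Summits of 1 interval (8842 in DMSO, 4595 in BPK25) were collapsed to the summit of highest −log10 q. The pileup k and background λ were solved from fold = (k + 1)/(λ + 1) and the Poisson p, for −log10 p under 300. The pileup was whole, within 0.001 in −log10 p, at 99.99% of DMSO and 99.97% of BPK25 regions, against 1.22% and 1.03% with shuffled p-values. The lowest background was the lowest shared by at least 0.5% of a list's regions. Differences of shares carry Newcombe 95% intervals. Overlap counts equalled those of bedtools 2.31.1. Tested on simulated data, the scripts recovered all 500 pileups and all 1152 planted overlaps. Scripts used scipy 1.17.1, pandas 2.3.3 and numpy 2.4.6 on Python 3.11.15, and plots matplotlib 3.10.9. The classes, lists and comparisons were chosen with earlier results of these data known, and the split by background after its values were seen. The named regions are, on chromosomes 1 to 22 and X outside places with peaks in at least 18 of 36 lists, the 4 of highest −log10 q per class. Other settings of peak threshold, overlap, list length, recurrent places and contigs were tried (8), and 2 were added after seeing the data. Sequence and annotation of build hg19 were not used here.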

Additional observations from a re-analysis of the deposited data

How the results depend on the processing

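Each of 6 results was recomputed under 10 alternatives, 2 of them chosen after seeing the data. None of the 4 differences among them changed direction. The other 2 results are shares, and their order turned at a −log10 q of at least 5 and was nearly level at equal list length. The split by background was not among the 10, and at low background the day 4 CTCF and TET1 differences did change direction. The 6 are the share of DMSO regions kept, the share of BPK25 regions also in DMSO, and 4 differences in percentage points. These are day 4 DMSO CTCF (BPK25-only minus DMSO-only), day 9 DMSO MBD3 and TET1 (kept minus DMSO-only) and day 9 BPK25 MBD3 (BPK25-only minus kept). Values stand in this order, and only those that left the reported interval are given. At a −log10 q of at least 5 they were 37.3%, 21.8%, 44.0, 56.0, -46.8 and -10.9. At a fold enrichment of at least 4 they were 3.17%, 20.1%, 21.4, 53.7, -23.3 and -26.2. With a reciprocal overlap of at least 50% they were 9.20%, 20.5%, 43.8 and 51.8, and BPK25 MBD3 was -21.8. Within 500 bp they were 14.4%, 31.6%, 43.4, 49.997 and -9.95. At equal list length by −log10 q the shares were 20.1% and 19.9%, day 4 CTCF 40.3 and TET1 -25.3. At equal length by fold enrichment the shares were both 13.6%, TET1 -17.0 and BPK25 MBD3 -8.24. Leaving out places in at least 18 lists gave 10.9% and 24.1%, MBD3 63.4 and TET1 -20.3. Without chromosome 1 (added) the second share was 25.1%, day 4 CTCF 50.3 and MBD3 63.3. In the top 25% of each list (added) the values were 19.7%, 43.6%, 54.6, 64.3, -48.4 and -12.4. On chromosomes 1 to 22, X and Y the 6 values stayed within their intervals. Over all, 43 of these values moved and 17 did not, and of 27 medians of width, fold enrichment and −log10 q by class 14 moved. The share of DMSO regions kept thus ranged from 3.17% to 37.3% with the threshold alone. No paired analysis was possible because each list pools its replicates. The lists state no depth, and a region missing from a list may lie below its threshold.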

Other observations

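At kept regions, TET regions of DMSO cells were more frequent where the background was low. Kept regions below 2 times the lowest background of the DMSO list had TET3 of DMSO cells at 63.0% (58.0 to 67.7), and those above it at 23.3% (20.2 to 26.7). At DMSO-only regions the shares were 46.0% (44.8 to 47.2) and 48.0% (45.2 to 50.8). Among regions with TET1 in DMSO, TET2 was also called at 66.9% (61.5 to 71.8) of kept, 48.9% (47.2 to 50.6) of DMSO-only and 36.5% (32.3 to 41.0) of BPK25-only regions.

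Of the 60 kept regions with low background in the BPK25 list, 13 overlapped a day 4 DMSO CTCF region and 6 a day 9 DMSO MBD3 region, while 44 overlapped a day 9 DMSO TET3 region.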
